A study of Mus musculus with 12 samples.

Results

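Of 35389 genomic regions that carried an H3K27ac peak both in untreated and in doxycycline-treated cardiac progenitor cells, 2940 had a treated-to-untreated log2 ratio of H3K27ac fold enrichment at least 1 below that of the median region, and these are described here as the reduced regions. They were chosen by merging the peak intervals of both lists wherever they shared at least 1 bp, which gave 94481 regions in all. For each shared region the highest fold enrichment in treated cells was divided by the highest in untreated cells, and the log2 of that ratio was centred on its median over all shared regions, which was -0.13 before centring. A region entered the set at a centred log2 ratio of -1 or lower. The 2940 regions were 8.31% of the shared regions. Since the ratio itself chose them, that share and the ratios below are a description and nothing was tested on them.

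The cells were cardiac progenitors differentiated from mouse embryonic stem cells of the line GLI1-FTA, made in the strain A2Lox.cre, in which doxycycline induces a tagged GLI1. Control cells were untreated and harvested on day 6, and the dox cells received 500 ng/ml doxycycline for 24 hours from day 5 and were also harvested on day 6. The series has 12 samples in 6 groups of 2, of which the 4 samples immunoprecipitated for H3K27ac entered the acetylation lists used here. The list of GLI1 sites came from the 2 pooled GLI1 pulldown samples of dox cells. The 2 samples of a condition were pooled before peaks were called, so each condition is 1 list, no spread between replicates can be given and no difference between conditions could be tested. All samples came from 1 engineered line and untreated cells were the only control, so effects of doxycycline and of GLI1 cannot be told apart. Cells of a mixed culture were measured in bulk, so fewer cells of a type and less acetylation per cell cannot be told apart either.

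Acetylation of lysine 27 on histone H3 marks active promoters and active enhancers, the distal elements that raise transcription of a gene from a distance. It is written by the coactivators p300 and CBP and removed by histone deacetylases, and its loss at an enhancer usually accompanies lower activity of that element. GLI1 is a zinc-finger transcription factor at the end of the Hedgehog pathway. In the early heart, Hedgehog signalling is known for its role in second heart field progenitors, whereas cardiomyocyte differentiation relies on factors such as GATA4, NKX2-5, TBX5, MEF2, HAND2 and myocardin.

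Promoters of contractile and cardiac regulatory genes lay among the reduced regions, and 6 of them are printed because they carry the letters of motifs read by cardiac or muscle factors or by GLI proteins. Each run is the 250 bases before the RefSeq transcription start on GRCm38.p6, written in the direction of the gene, and capitals mark the motifs. Tnnt2, cardiac troponin T of the thin filament, lies on the plus strand of chromosome 1 (chr1:135836084-135836333). Its capitals are a CAGCTG E-box 223 and again 157 bases before the start, a GATA motif 166 bases before it and a TEAD motif 27 bases before it. Tnnc1, cardiac troponin C (chr14:31208062-31208311, plus strand), has a TEAD motif 58 bases before its start. Ankrd1, a cardiac ankyrin repeat protein known as a YAP target (chr19:36119845-36120094, minus strand), has TEAD motifs 210 and 123 bases and a GATA motif 47 bases before its start. Ldb3, a Z-disc protein (chr14:34588608-34588857, minus strand), has a CArG box, the letters bound by serum response factor, 109 bases before the start printed. That start lies inside the gene, more than 1000 bp from either end. Hand2, a basic helix-loop-helix factor needed for the right ventricle (chr8:57320733-57320982, plus strand), has a GATA motif 172 bases before its start. Slc8a1, the sodium-calcium exchanger (chr17:81738388-81738637, minus strand), has the GLI core letters 222 bases and a GATA motif 68 bases before its start.
Tnnt2: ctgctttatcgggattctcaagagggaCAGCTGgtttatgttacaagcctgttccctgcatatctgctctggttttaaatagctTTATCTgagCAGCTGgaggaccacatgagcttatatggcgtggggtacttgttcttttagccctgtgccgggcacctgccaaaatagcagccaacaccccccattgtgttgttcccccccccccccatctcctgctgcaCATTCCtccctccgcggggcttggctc
Tnnc1: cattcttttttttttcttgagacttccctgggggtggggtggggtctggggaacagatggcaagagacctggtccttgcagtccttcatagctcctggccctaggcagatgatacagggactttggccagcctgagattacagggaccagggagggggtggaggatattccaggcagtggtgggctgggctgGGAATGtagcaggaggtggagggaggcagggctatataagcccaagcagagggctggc
Ankrd1: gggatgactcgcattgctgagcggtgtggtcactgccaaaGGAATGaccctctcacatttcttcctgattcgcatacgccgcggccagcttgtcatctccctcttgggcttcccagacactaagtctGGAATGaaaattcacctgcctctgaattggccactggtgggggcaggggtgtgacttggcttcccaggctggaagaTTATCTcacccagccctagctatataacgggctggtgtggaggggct
Ldb3: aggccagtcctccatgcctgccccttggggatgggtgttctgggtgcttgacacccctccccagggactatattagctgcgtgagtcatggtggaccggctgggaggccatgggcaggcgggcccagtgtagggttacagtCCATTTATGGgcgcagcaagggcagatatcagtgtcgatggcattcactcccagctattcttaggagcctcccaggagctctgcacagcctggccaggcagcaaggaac
Hand2: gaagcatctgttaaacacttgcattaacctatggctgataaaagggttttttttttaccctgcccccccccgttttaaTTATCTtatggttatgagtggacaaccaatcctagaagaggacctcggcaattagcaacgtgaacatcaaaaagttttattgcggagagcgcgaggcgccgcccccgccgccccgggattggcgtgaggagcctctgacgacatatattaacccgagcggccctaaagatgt
Slc8a1: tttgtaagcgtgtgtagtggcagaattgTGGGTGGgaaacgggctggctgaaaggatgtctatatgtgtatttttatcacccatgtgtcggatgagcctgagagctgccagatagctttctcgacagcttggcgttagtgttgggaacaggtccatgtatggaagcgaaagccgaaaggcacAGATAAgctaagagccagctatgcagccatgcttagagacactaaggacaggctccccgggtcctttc

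Fold enrichment, the authors' value for each peak, is the pileup of reads at the summit over the local background of the same pool. Over the reduced regions the median was 12.1 in control and 4.11 in dox, against 7.11 and 6.13 over all shared regions. The reduced regions were thus above the typical shared region before treatment and below it after. Quartiles were 9.14 and 16.9 in control and 3.24 and 5.71 in dox. The median centred log2 ratio was -1.30, with quartiles of -1.53 and -1.12, and 114 regions were at -2 or lower. The lowest control value in the set was 4.83. The lowest dox value of any shared region was 2.07, so a region much weaker than that in control would reach the limit only by leaving the dox list, and it then counts as control-only. When the shared regions were ordered by control fold enrichment into 10 groups of near equal size, groups 1 and 2 held 0 reduced regions, group 8 held 666 (19.1%) and group 10, the strongest, held 338 (9.55%). The 5 regions just inside the limit had control values of 5.03 to 22.1 and dox values of 2.295 to 10.1, and the 5 just outside had 8.87 to 14.2 and 4.05 to 6.48.

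**Figure D1:**
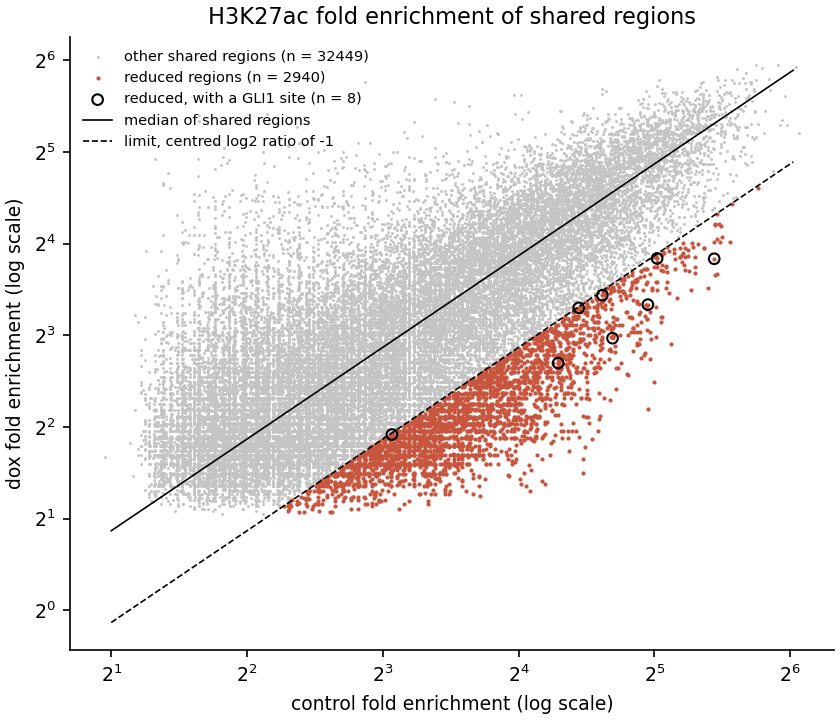
Highest H3K27ac fold enrichment of each of the 35389 shared regions in control (horizontal, log scale) and in dox cells (vertical, log scale); red points are the 2940 reduced regions, circles mark the 8 with a GLI1 site, the solid line is the median ratio and the dashed line the limit. The reduced regions lie below the dashed line by construction and have a median of 12.1 in control and 4.11 in dox.

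The reduced regions were not near the detection limit in control cells, but many were in dox cells. The median −log10 q was 38.8 in control and 6.65 in dox. The control value was 10 or more at 2916 regions (99.2%), against 64.3% of all shared regions, and the dox value was under 5 at 1090 (37.1%), against 19.3%. The peaks also covered less of each region after treatment. The median length covered was 1965 bp in control and 785 bp in dox, and at 1510 regions (51.4%) the dox peaks covered less than 0.5 of what the control peaks covered, against 11.4% of all shared regions. At 1078 regions (36.7%) a single control interval stood opposite several dox intervals, against 12.8% of all shared regions. The strongest summits of both lists lay within 200 bp of each other at 1778 regions (60.5%), against 70.5% of all shared regions. Dox peaks covered more than control peaks at 55 regions (1.87%), against 46.5%. The −log10 q comes from the same pileup and background as the ratio, and the covered length from the same peaks. These contrasts thus follow in part from how the regions were chosen and are not separate evidence.

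A ratio of fold enrichments can fall through a lower pileup or through a higher local background, and the deposited values allow both to be recovered. The median summit pileup was 49 reads in control and 20 in dox, against 30 and 30 over all shared regions. After scaling by the ratio of the 2 pools' uniform backgrounds, 1.28, the median log2 ratio of pileups was -1.56, against -0.27 over all shared regions. Of the reduced regions, 2762 (93.9%) were at -1 or lower by the scaled pileup alone, where the share over all shared regions was 14.7%. That pileup ratio was not centred, so the limit was looser than the one that chose the regions. With the pileup ratio centred on its own median, 2411 (82.0%) were at -1 or lower, against 8.74% of all shared regions. The pileup is part of the fold enrichment, so this is the same contrast read in another way. The exact 95% counting interval of the pileup ratio lay wholly below the median of shared regions at 2690 reduced regions (91.5%), against 14.4% of all shared regions. It lay wholly below 0 at 2857 (97.2%), against 23.7%, and wholly at or below -1 at 955 (32.5%), against 2.81%. These intervals cover counting error only, since reads amplified by PCR are not independent molecules and replicates were pooled. The regions were also chosen for a low ratio, so low intervals follow in part from that choice and are not a test. The dox background was at least 1.5 times the control background after scaling at 177 regions (6.02%), against 2.54% of all shared regions, and its part in their ratios was not tested.

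**Figure D2:**
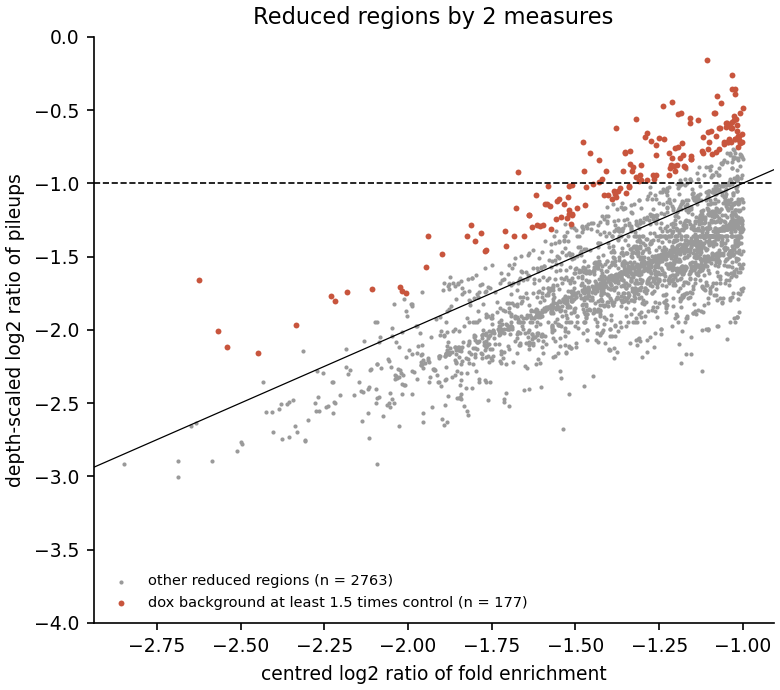
Each of the 2940 reduced regions by its centred log2 ratio of fold enrichment (horizontal) and its depth-scaled log2 ratio of summit pileups (vertical); red points are the 177 regions with a dox background at least 1.5 times the control background after scaling, the solid line marks equal values and the dashed line a pileup ratio of -1. Most points lie below the dashed line (2762 at -1 or lower), and the red points lie above the solid line.

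The lowest ratio was at Best3, which encodes a bestrophin family member of chloride channels (chr10:117022706-117024930). The value of 22.3 in untreated cells became 2.83 under treatment, a centred log2 ratio of -2.85, and its summit pileup was 94 reads against 16. A region inside Grip1, a PDZ scaffold protein, followed at 22.2 and 3.15 (-2.69). The region nearest to Ptprc, the leukocyte antigen CD45, lay 501097 bp from that gene and had 18.3 and 2.59 (-2.69). These 3 regions went from a control −log10 q between 66.8 and 97.4 to a dox value between 1.77 and 3.43, close to the threshold of the dox list. A region 19539 bp from Bmper, a secreted modulator of BMP signalling, had 17.0 and 2.47 (-2.65). A region inside Rgsl1 had 18.02 and 2.65 (-2.63), and one 217106 bp from Serp2 had 22.5 and 3.42 (-2.58). A region inside Atp8a2, a phospholipid flippase, had 16.7 and 2.56 (-2.57). The region at an end of S100a2, a calcium-binding protein, also held RefSeq transcription starts of S100a3 and had 23.2 and 3.64 (-2.54). A region 36801 bp from Synm, the intermediate filament protein synemin of muscle, had 16.2 and 2.59 (-2.51).

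The region at Tuba1b, an alpha-tubulin found in most cells, was also among the 10 lowest, at 31.0 and 4.58 (-2.63). Its summit pileup was 121 reads in control and 49 in dox, a scaled log2 ratio of -1.66, while its recovered background was 2.94 in control and 9.91 in dox. Raised backgrounds also stood beside the ratios inside Atp8a2 (3.02 in control and 7.58 in dox) and at S100a2 (2.83 and 6.41), where the scaled pileup ratios were -2.01 and -2.12. The other 7 of the 10 had pileup ratios of -3.01 to -2.64.

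The reduced regions that were strongest in control cells stayed well above the typical shared region in dox cells. At Parva, the focal adhesion protein alpha-parvin, values were 54.3 before and 24.4 after treatment (-1.02), and at Krcc1 it was 47.5 and 21.5 (-1.01). At both the scaled pileup fell less than the fold enrichment, and the dox background was higher; its part in the ratios was not tested. The scaled log2 ratio of pileups was -0.56 at Parva and -0.52 at Krcc1, with backgrounds of 2.83 and 6.41 at Parva and 3.05 and 6.997 at Krcc1. These 2 were the only ones of the 10 strongest with a pileup ratio above -1. Inside Rbm20, the splicing factor of titin and other sarcomere transcripts, the values were 44.9 and 18.3 (-1.16). Inside Smyd1, a muscle methyltransferase needed for cardiac differentiation, they were 44.0 and 20.001 (-1.004). A region 3513 bp from Reep3 had 44.1 and 12.7 (-1.66), the lowest ratio among the 10 strongest. The regions at Gm33049 and near Map10, Tpra1 and Nabp1 had 44.5 to 47.0 in control and 16.2 to 18.6 in dox.

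Reduced regions had a median width of 1978 bp, against 1204 bp over all shared regions. Raised regions were about as wide, with a median of 1942 bp, so width did not set the reduced regions apart from them. The widest spanned 13833 bp at Ahnak and Scgb1a1 (43.4 in control, 14.3 in dox, -1.47). Ahnak is a large scaffold protein beneath the plasma membrane. A region of 10598 bp lay over Hand2 (24.5 and 10.8, -1.05) and one of 9522 bp inside Meis1, a homeobox cofactor of HOX and PBX proteins (25.4 and 6.70, -1.79). The other wide regions lay near Pmp22, Map10, Sipa1l2 and Meioc and inside Rbm20, Tspan9 and Lpp.

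The reduced regions lay mostly away from gene ends. Only 277 of them (9.42%, exact 95% interval 8.39 to 10.5) came within 1000 bp of either end of a gene, against 30.6% of all shared regions and 18.9% of the 2399 shared regions that were raised by as much (6.78% of the shared regions). A further 1335 (45.4%) lay inside a gene and 1328 (45.2%) between genes. A transcription start lay in 125 of them (4.25%), against 18.4% of all shared regions. Position was not used to choose the regions, but strong regions are more often promoters, so the share was also read within the 10 groups of control fold enrichment. In group 10, 11.8% of the reduced regions and 61.7% of all shared regions lay at a gene end, and in group 9 the shares were 9.04% and 49.7%. In groups 4 to 10 the share among the reduced regions stayed between 7.46% and 13.5%. Control-only regions, which lost their call altogether, lay at a gene end in 5.97% of cases. Dox-only regions, which were called in dox cells alone, had a slightly lower share still. The low share of control-only regions was thus not particular to the loss of a call.

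**Figure D3:**
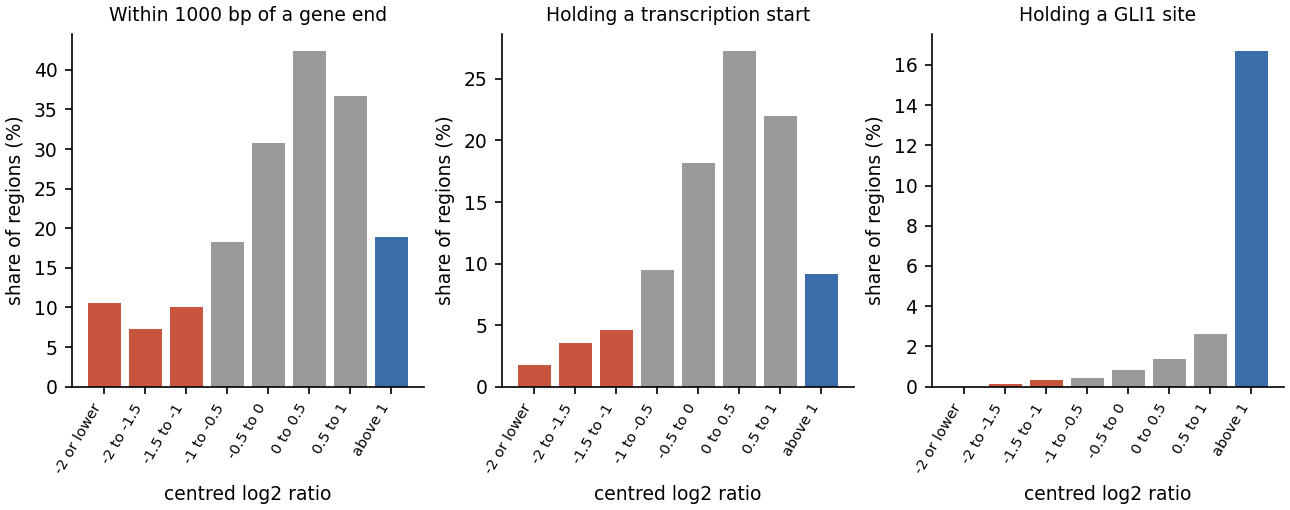
Share of shared regions, in percent, that lie within 1000 bp of a gene end (left), hold a transcription start (middle) or hold a GLI1 site (right), by bins of the centred log2 ratio; red bars are the reduced regions, grey bars the bins between and blue bars the raised regions. The shares at a gene end are 10.5%, 7.28% and 10.1% in the red bins, and the share with a GLI1 site is 0 in the lowest bin and 16.7% in the raised bin.

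GLI1 sites were rare in the reduced regions. The authors' list holds 2605 windows of 101 bp around replicated GLI1 summits with a Gli motif in dox cells, so summits without the motif are not counted. Of the reduced regions, 8 (0.272%, exact 95% interval 0.118 to 0.535) held at least 1 window, against 2.21% of all shared regions and 16.7% of the raised ones. None of the 114 regions at -2 or lower held a site. At larger distances the shares came closer: 3.64% of reduced and 6.56% of all shared regions had a site within 10 kb, and 26.1% and 30.2% within 100 kb. The reduced regions are thus described here by what lies near them, with no statement on direct binding beyond these windows.

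The 8 regions with a site included cardiac and embryonic regulators. Hand2 (24.5 and 10.8, -1.05) had its site 4246 bp from the control summit. Cfc1, a co-receptor for Nodal signalling in left-right patterning, shared its region with Prss40 (19.6 and 6.48, -1.46), and the site lay 2753 bp from the summit. The region inside Ephb2, an ephrin receptor, had 31.0 and 10.1 (-1.49), with the site 1403 bp from the summit. Sites also lay in the region at Ahnak and Scgb1a1, in that at Dynll1, a dynein light chain (8.38 and 3.78, -1.02), and in those near Dym, Laptm4a and Pou3f1. The windows of 7 sites lay inside a control interval over their whole 101 bp, and the window at Dynll1 touched its control interval by 2 bases. Those near Dym, at Ahnak and near Laptm4a also shared bases with a dox interval, and the other 5 did not. The site values, a −log10 q between 13.4 and 25.03, stood at the 11.6th to 39.7th percentile of the 2605 sites, so each was below the median site.

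The neighbourhood of a reduced region was lower as well. The nearest other shared region lay at a median of 4376 bp and had a median ratio of -0.38, and 69.6% of these neighbours were below 0, against -0.01 and 50.6% for the neighbours of all shared regions. Of the neighbours, 628 (21.4%) were reduced themselves, against 8.06%. At least 1 control-only region lay within 50 kb of 89.3% of the reduced regions, with a mean of 4.65, against 73.1% and 2.83 over all shared regions. Dox-only regions were fewer, at 2.37 against 3.32. Neighbouring regions share chromatin and are not independent, so these shares are given without a test.

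Joining reduced regions no more than 50 kb apart gave 2208 loci. Of these, 1701 held 1 region, and 136 held at least 3, with 497 regions between them. In all, 1239 reduced regions (42.1%) had another within 50 kb. On the autosomes the share of shared regions that were reduced ran from 6.41% on chromosome 11 to 10.7% on chromosome 1, and it was 7.93% on X. Y held 3 shared regions, of which 0 were reduced.

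Jph2 was among the loci with most reduced regions. It encodes junctophilin 2, which holds the cell membrane and the sarcoplasmic reticulum together in heart muscle. Of 7 shared regions between positions 163345014 and 163396399 of chromosome 2, 6 were reduced, and 8 control-only and 0 dox-only regions lay in the same span. The 6 went from 24.3 to 4.33, from 17.2 to 5.47, from 10.8 to 3.94, from 8.74 to 3.58, from 8.04 to 3.54 and from 6.98 to 2.82. Every region there was lower in dox, and the remaining one, 22.1 and 12.4, had a ratio of -0.70.

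The locus of Smad7, an inhibitor of BMP and TGF-beta signalling, and Ctif held the most, 8 of 18 shared regions over 142873 bp. Their control values were 6.80 to 30.5 and their dox values 2.81 to 8.86. The strongest region of that locus was not among them: it had 52.6 in control and 47.1 in dox, a ratio of -0.03. Regions at the limit and a region near the median ratio thus stood side by side there. At Tspan9, a tetraspanin, 6 of 17 shared regions were reduced and 28 control-only and 4 dox-only regions lay between them. The locus of Micalcl and Parva held 7 of 16, that of Cgnl1, a junction protein, 6 of 17 with 4 GLI1 sites in its span, and that of the serpin genes Serpinb1c, Serpinb6b, Serpinb9 and Serpinb9b 6 of 7.

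At Ccn4, a secreted matricellular protein and Wnt target, 5 of 6 shared regions were reduced with a median ratio of -1.62, and at Kif6, a kinesin, 5 of 8 with a median of -1.58. The 5 at Kif6 had 16.4, 12.01, 11.5, 10.2 and 6.66 in control and 3.85, 3.46, 3.51, 4.11 and 2.81 in dox, and 14 control-only regions lay in the span. Other loci of 5 included Tns1, a focal adhesion protein (median -1.56), Mlip, a lamin-interacting protein of muscle (-1.20), Tead1, the TEAD factor of the YAP pathway (-1.25), Lhfp (-1.31), and a span 34202 bp from Tgfb2.

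**Figure D4:**
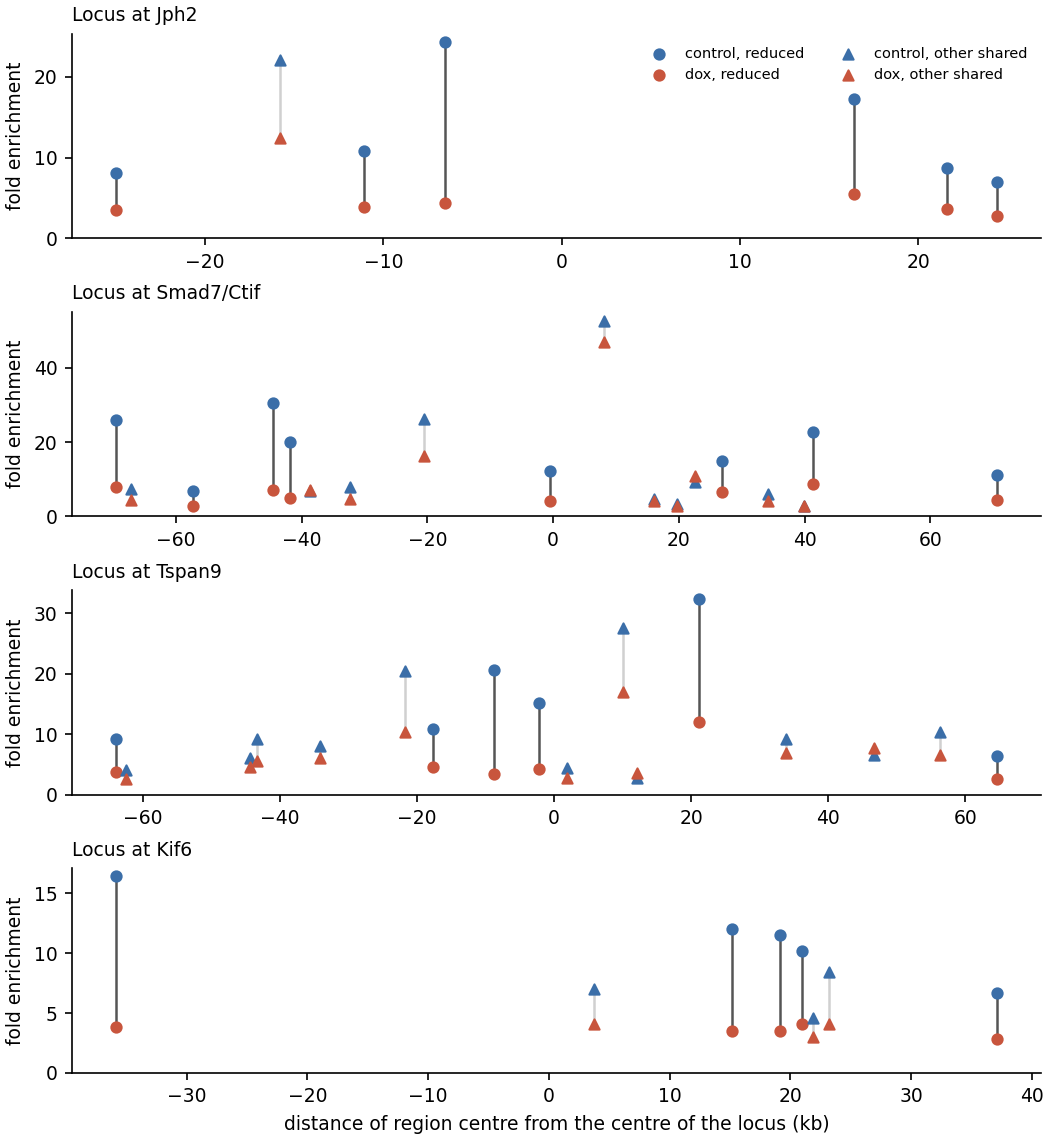
Fold enrichment in control (blue) and dox (red) of each shared region of 4 loci, by distance of the region centre from the locus centre in kb; circles joined by dark lines are reduced regions and triangles joined by pale lines the other shared regions. At Jph2 6 of 7 shared regions are reduced, at Smad7 and Ctif 8 of 18, at Tspan9 6 of 17 and at Kif6 5 of 8.

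Genes were grouped in 14 lists of 415 genes by role, and a region was assigned to a gene when it came within 50 kb of it. Over all protein-coding genes, 7.57% of the shared regions within 50 kb of a gene were reduced and 6.40% were raised, with a median ratio of 0.01. Around 44 genes of the sarcomere and calcium handling, 29 of 212 shared regions (13.7%) were reduced and 14 were raised, with a median of -0.13. Around 36 cardiac transcription factor genes, 19 of 153 (12.4%) were reduced and 5 were raised (3.27%), with a median of -0.22. Hedgehog pathway genes had 14 of 144 reduced (9.72%) but also 17 raised (11.8%), mesoderm and second heart field genes 10 of 125 (8.00%) and 16 (12.8%), and housekeeping genes 4 of 148 reduced (2.70%). Wnt genes had 15 of 154 reduced (9.74%) and 8 raised (5.19%), pluripotency genes 8 of 69 (11.6%) and 7 (10.1%), and the neural list, with 2 of 15, was too thinly covered to place. Lists differ in how many of their regions are promoters, and none was tested.

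**Figure D5:**
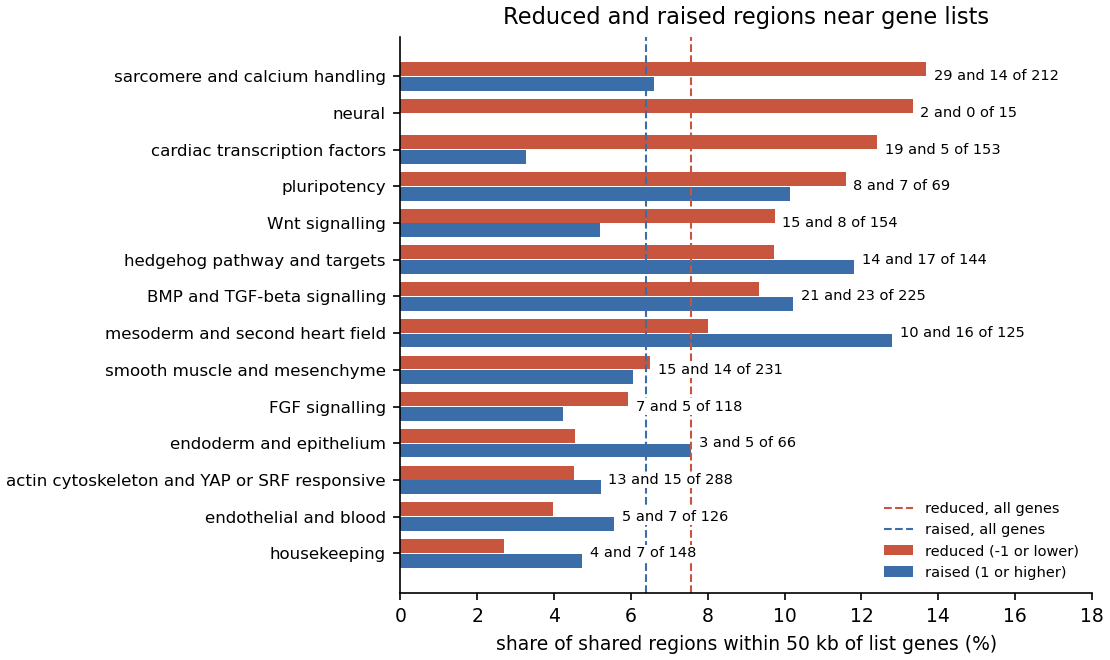
Share of the shared regions within 50 kb of the genes of each list that were reduced (red) or raised (blue), in percent; the numbers beside each list give reduced and raised regions out of its shared regions, and the dashed lines the shares around all protein-coding genes. Sarcomere and calcium handling genes have 13.7% reduced regions, cardiac transcription factors 12.4% and housekeeping genes 2.70%, against 7.57% around all protein-coding genes.

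Of the sarcomere and calcium handling genes with a shared region at a gene end, 7 of 19 had a reduced one there, against 301 of 10021 (3.004%) over all genes. Csrp3, a Z-disc protein that senses stretch, had 10.97 in control and 3.02 in dox (-1.73). Tnnc1 had 12.4 and 3.54 (-1.67), and Bves, a membrane protein of the Popeye family that binds cyclic AMP, had 10.8 and 3.24 (-1.60). The promoter of Tnnt2 printed above lay in a region with 10.4 and 3.74 (-1.35). All of these had moderate control values near the median of the reduced regions. Xirp1, an actin-binding protein of intercalated discs, had 15.1 and 5.50 (-1.32), Slc8a1 13.0 and 5.36 (-1.14), and Ankrd1 18.9 and 8.24 (-1.06).

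Further reduced regions lay inside genes of calcium release and the filaments. Cacna1c, the pore subunit of the L-type calcium channel, held 4 among its 18 shared regions, and the lowest went from 13.4 to 3.15 (-1.95). Within 50 kb of Cacna1c 2 shared regions were raised, and the median ratio was -0.11. Trdn, triadin of the calcium release complex, held 1 with 24.5 and 7.56 (-1.57). Ryr2, the calcium release channel itself, held 2 (-1.40 and -1.06), and another with 30.8 and 9.07 (-1.63) lay 1345 bp away. Ttn, the giant spring protein titin, held 1 (-1.47), and so did Nebl (-1.22), Ldb3 (-1.19) and Myl4 (-1.0001). In all, 22 of the 41 genes of the list with a shared region in reach had a reduced one within 50 kb (53.7%), against 20.1% of all genes. A gene with more shared regions in reach has more chances of a reduced one, and these per-gene shares were not adjusted for that. The smooth muscle and mesenchyme list also stood above all genes by this count, although its share of reduced regions was below that of all genes. By regions, the contrast for the sarcomere and calcium handling list was 13.7% against 7.57%. The sarcomere and calcium handling list was not lower throughout. None of the shared regions within 50 kb of Actn2, the Z-disc protein alpha-actinin, or of Casq2, the calcium store protein calsequestrin, was reduced. Median ratios there were 0.06 and 0.18. Near Myl3, 3 of 5 shared regions were raised and 0 reduced, with a median of 1.16. Nppa, Nppb, Myl2, Tnni3, Hrc, Tcap, Acta1, Gja5, Cryab and Xirp2 also had 0 reduced regions in reach and medians above 0. These genes were chosen after their values were seen.

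Among the cardiac transcription factors, Myocd, the coactivator of serum response factor in heart and smooth muscle, held 4 reduced regions. At its ends they had 14.3 and 4.13 (-1.66) and 11.4 and 4.32 (-1.27), and inside the gene 16.5 and 3.74 (-2.01) and 9.14 and 3.67 (-1.18). The Iroquois homeobox genes Irx1 (-1.30) and Irx5 (-1.06), the zinc-finger factor Gata5 (-1.14), the T-box repressor Tbx3 (-1.17) and Hand2 (-1.05) each had one at a gene end. Zfpm2, the GATA cofactor also called FOG2, held one inside (12.5 and 4.11, -1.48). In all, 6 of the 23 genes of the list with a shared region at an end had a reduced one there, against 3.004% over all genes. Several factors of cardiomyocyte differentiation had no reduced region. None of the 9 shared regions within 50 kb of Gata4, of the 6 near Gata6 or of the 5 near Tbx20 was reduced, with median ratios of 0.12, 0.26 and 0.04. The same held for the 1 region near Nkx2-5 (0.08) and for those near Mef2a (median 0.42), Mef2c (-0.21) and Mef2d (0.54), and Tbx5 had 0 shared regions in reach. Nr2f2, an orphan nuclear receptor of atrial cells, had a median of 0.85. In the mesoderm and second heart field list, whose reduced share was near that of all genes, Msx2, a homeobox factor downstream of BMP signalling, went from 21.0 to 5.19 (-1.89).

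At gene ends the counts of the signalling lists were small, and a share of 3.004%, that of all genes, stands beside each. None of the 24 hedgehog genes with a shared region at an end had a reduced one there, which is near that share. Inside genes of that list, reduced regions lay in the co-receptors Cdon (10.9 and 2.88, -1.78) and Boc (28.2 and 11.2, -1.20, and a second at -1.31), in the ciliary protein gene Evc2 (-1.33) and in the transcription factors Gli2 (-1.28) and Gli3 (-1.12 and -1.08). These are 5 of 23 genes with a shared region inside, against 1153 of 11450 over all genes. Boc held 2 of 10, Gli3 2 of 12 and Gli2 1 of 9. Other genes of the list went the other way. Near Ptch1, 0 of 10 shared regions were reduced and 3 were raised, with a median of 0.32. Hhip (0.82), Gli1 (0.51) and Nkx2-9 (1.74) also had medians above 0 and 0 reduced regions within 50 kb. Of 14 Wnt genes, 4 had one at an end: the Wnt target Sp5 (12.5 and 3.66, -1.64), the secreted agonist Rspo3 (-1.495) and the nuclear effectors Tcf7 (-1.17) and Lef1 (16.8 and 7.48, -1.04). Inside Wnt5b one went from 24.7 to 6.53 (-1.79). Of 24 BMP and TGF-beta genes only Bambi, a decoy receptor, had one at an end (17.2 and 6.30, -1.32), and of 14 FGF genes none had, both near the share of all genes.

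Around actin and YAP or SRF responsive genes 13 of 288 shared regions (4.51%) were reduced, and around smooth muscle and mesenchyme genes 15 of 231 (6.49%), both shares below the 7.57% around all genes. Fhl2, a LIM-domain cofactor abundant in heart, nevertheless held a region that went from 17.6 to 3.24 (-2.31), but 2 of the 9 shared regions near it were raised and their median was 0.64. Tpm4, a tropomyosin, held one that went from 20.6 to 5.19 (-1.86). Tead1 held 6 of the 54 shared regions inside it, with ratios of -1.5001 to -1.04, while 5 shared regions within 50 kb of it were raised and the median was 0.03. Col1a1, the main fibrillar collagen chain, had 22.2 and 6.23 (-1.70) at a gene end. At gene ends the smooth muscle and mesenchyme list stood above all genes, with 4 of 27 genes (14.8%) against 3.004%. These were Tpm2, Cnn1, Col1a1 and Snai2. None of the 26 actin and YAP or SRF responsive genes with a shared region at an end had a reduced one there, a count near the 3.004% of all genes. Among markers of other cell types that such a culture could hold, few genes had a shared region at an end at all, and reduced ones lay at 1 of 7 endothelial and blood genes (Eng, 29.3 and 10.2, -1.39), 1 of 7 endoderm genes (Apoa2, -1.19), 0 of 2 neural genes and 2 of 10 pluripotency genes (Tdgf1, 17.0 and 5.12, -1.60, and Tbx3), against the 3.004% of all genes. Within 50 kb, 5 of 126 shared regions of endothelial and blood genes (3.97%) and 3 of 66 of endoderm genes (4.55%) were reduced, both below 7.57%. The part of changes in cell makeup in the reduced regions was not tested.

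The reduced regions that hold a promoter were poorer in CpG than other shared promoters. RefSeq promoter windows of 125 genes, 151 windows in all, lay in 125 reduced regions. Their median observed over expected CpG was 0.484, against 0.814 in other shared regions and 0.567 over all 21263 windows, and 77 (51.0%) were below 0.5, against 12.5% in other shared regions. Windows of control-only regions had 0.523 and of raised regions 0.727. GC content was closer, with medians of 57.0% and 62.3% in other shared regions.

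Motif letters were searched on both strands of these windows. GGAATG, read by TEAD factors, was in 26 windows (17.2%), against 11.1% in other shared regions and 13.6% of all promoters. The E-box CAGCTG was in 34 (22.5%), against 13.3% and 15.6%. The CArG box was in 6 (3.97%), against 1.19% and 1.52%, and the MEF2 motif in 3 (1.99%), against 1.01% and 1.67%. The GATA letters AGATAA were in 10.6%, against 5.39% and 9.65%. The GLI core TGGGTGG was in 28 windows (18.5%), against 8.75% and 9.46%. Windows of control-only regions had the TEAD letters in 20.5% and the E-box in 22.5%, so those 2 shares were not particular to the reduced regions. The same windows had the GATA letters in 7.29%, the MEF2 motif in 1.33%, the CArG box in 0.662% and the GLI core in 6.62%. Among the genes printed above only Hand2 had a GLI1 site in its region, and its promoter window holds no GLI core. Slc8a1, the printed gene with the GLI core, had no GLI1 site in its region. For the NKX letters CACTTGA or CACTTAA the shares were 3.31%, 3.32% and 4.97%, and for the T-box letters AGGTGT 9.93%, 8.94% and 12.7%. Shares are of windows, and windows of the same gene can overlap and repeat a match, as the Ldb3 windows do for their CArG box. A match is a description of the letters and not a bound site.

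Of 1005 RefSeq miRNA hairpins, 115 lay in a shared region and 7 of these (6.09%) in a reduced one, close to the 8.31% of all shared regions that were reduced. They were Mir22, Mir7235, Mir6928, Mir1932, Mir3965, Mir8112 and Mir6416. The mature forms of miR-22, a miRNA abundant in heart muscle, are printed with their seeds in capitals. Their hairpin lies in a region with 25.8 in control and 10.1 in dox (-1.22) and a scaled log2 pileup ratio of -1.28. The 2 arms have different seeds, and the acetylation of the region says nothing of which arm is used.
mmu-miR-22-5p: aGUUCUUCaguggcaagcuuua
mmu-miR-22-3p: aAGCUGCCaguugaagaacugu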

How the data were processed

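H3K27ac ChIP-seq peaks of untreated and doxycycline-treated cells were taken from 2 lists deposited by the authors, each called on 2 pooled samples, and GLI1 sites from their list of replicated summits with a Gli motif. Bowtie2 2.3.2, SAMtools 1.5, MACS2 2.1.1 and the build mm10 are named in the submitters' processing notes, without a role for each. The deposited peak value is a fold enrichment, a ratio of pileup to local background, and the deposited significance is a −log10 p or −log10 q. The control list held 126500 summits in 67463 intervals and the dox list 142222 in 76437. Library depth is unknown; the uniform backgrounds recovered from the lists, 2.83 reads in control and 3.63 in dox, gave the ratio of depths of 1.28. A pileup and background that return the deposited values within 0.01 were found for 100% of summits.

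Summits of an interval were collapsed to their highest value, and the merging, ratio and limit follow the opening of the report. Python 3.11.15 with numpy 2.4.6, pandas 2.3.3, scipy 1.17.1 and matplotlib 3.10.9 was used, and the scripts were tested on simulated data. Genes, promoters and miRNAs came from RefSeq tables of GRCm38.p6, the assembly that mm10 is built on; promoter windows hold 250 bases before and 50 after a start, and 17492 of 21887 protein-coding genes had one. Intervals of shares are exact binomial (Clopper-Pearson) at 95%. The depth-scaled pileup, other limits, weights, overlaps and stricter q thresholds were tried as alternatives. Regions were named if they were among the 10 lowest, strongest or widest, held a GLI1 site, lay by a listed gene, or belonged to the 8 loci with most members; further genes were picked from the lists and loci after their values were seen. Peak numbers skip in 694 stretches (937 numbers in control and 999 in dox); the 28 reduced regions in such stretches were counted but not named. One further region within the naming rule is not reported here. The members and gene lists were chosen with earlier results of these data known.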

Additional observations from a re-analysis of the deposited data

How the results depend on the processing

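No paired analysis was possible because the replicates of each condition were pooled into 1 list before peaks were called; for the same reason no replicate could be left out. The number of reduced regions was 8008 with fold enrichment summed over covered bases (2907 of the 2940 kept), 5197 by the depth-scaled pileup (2762 kept), 1922 with −log10 q of at least 5 in both lists (1853 kept) and 1134 with at least 10 (986 kept). It was 4486 at a limit of -0.8 and 815 at -1.5. It stayed within 1.5 times of 2940 without centring (3922), weighted by width (3360), with a stricter overlap (2968) and with the dox value at the strongest control interval (2939). Alternatives chosen after seeing the data gave 3093 by a pileup centred on its own median (2411 kept, 82.0%) and 2763 without regions of raised dox background. The share with a GLI1 site was 0.617% at −log10 q of at least 10, against 3.07% of all shared regions under that threshold. The share at a gene end was 19.7% within 5000 bp, against 40.1%, and 11.6% at −log10 q of at least 10, against 47.6%. Loci of at least 3 regions numbered 65 when joined at 20 kb and 384 by the depth-scaled pileup. All 34 regions named by rank or by a GLI1 site stayed below 0 under the 3 settings run on them; by the pileup 31 were at -1 or lower, and Parva, Krcc1 and Dynll1 were not. The cause of these shifts was not tested, beyond fewer regions passing a stricter threshold. Regions that lost their dox call are not in the set, and no ratio can be given for them.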
